A study of Mus musculus with 8 samples.

Results

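The glucocorticoid receptor gene Nr3c1 and 9 genes that glucocorticoids are known to induce (Fkbp5, Tsc22d3, Zbtb16, Sgk1, Klf9, Klf15, Errfi1, Hif3a and Cdc42ep3) were followed in the cardiac ventricles of tumor-bearing and PBS-injected mice. They were chosen by gene symbol, and all 10 symbols matched exactly 1 row each of the 43346 genes in the count table. Ventricular RNA was sequenced from 8 male C57BL/6 mice injected at 7 weeks of age and sampled 14 days later. The 4 tumor-bearing mice, called LLC1 1-2, 1-3, 1-5 and 2-2 here, were injected under the skin of the flank with 1000000 LLC1 cells, a mouse Lewis lung carcinoma line. The 4 control mice, PBS 1-1, 1-3, 2-1 and 2-5, were given the PBS vehicle alone. The labels name no engineered allele in either group, and the model is a single transplanted cell line studied at 1 time point. Circulating corticosterone and the mass of adrenal glands or tumors were not analysed here, and the hour at which hearts were collected is not given in the sources used here.

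Glucocorticoids are steroid hormones of the adrenal cortex, of which corticosterone is the main one in mice. In resting cells the receptor is held by heat shock protein chaperones. Once the hormone is bound, the receptor enters the nucleus, binds short palindromic DNA elements and changes the transcription of nearby genes. In heart and skeletal muscle its targets include the KLF15 program of fat and amino acid use and genes of muscle wasting. Many of its targets also follow the daily rhythm of the hormone and of the cell's own clock.

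In tumor-bearing mice, Klf15 and Klf9 were higher than in PBS-injected mice, by 1.68-fold and 1.26-fold. They were the 2 of the 10 genes with an edgeR FDR under 0.05, where 4.12% of all genes were higher. Klf15 stayed under this limit in each of the 8 fits that left out 1 mouse, and Klf9 in 2 of them. Of the members 0 were lower at this limit, where 4.61% of all genes were. Fkbp5, Zbtb16 and Hif3a had fold changes of 1.58, 1.44 and 1.77 that did not pass in edgeR's test. DESeq2 called Zbtb16 as well, and the likelihood ratio test Fkbp5 and Zbtb16. For Fkbp5, Tsc22d3, Zbtb16 and Hif3a, 1 control mouse, PBS 2-5, lay within or above the range of the tumor-bearing mice while the other 3 lay below it. With that mouse, singled out after its values were seen, left out, 6 of the 10 genes were higher and the receptor itself was lower, where 4.99% of all genes were higher and 5.1% lower. Leaving out any of the other 7 mice gave 1 or 2 of the 10 genes, and between 3.32% and 11.9% of all genes.

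Counts on genes came to between 12480706 and 19747596 per library, so that 1 CPM (counts per 1000000, after scaling of the libraries by edgeR's TMM factors) stood for 11.7 to 19.9 counts. The members had between 21 counts (Hif3a in PBS 1-1) and 3787 counts (Zbtb16 in LLC1 2-2) in a library, and all 10 passed the filter on low counts. PBS 1-1 stood apart from the other control mice on the second principal component, which held 25.2% of the variance. Its 10 most abundant genes took 20.4% of its counts. The cardiomyocyte markers summed to between 106584 and 114190 CPM in tumor-bearing mice, to 110720 CPM in PBS 1-1 and to between 97536 and 98629 CPM in the other control mice, and no listed marker of that type was without counts. Of these markers Ttn, named after its values were seen, was at 18482 CPM in PBS 1-1. It was at 8261 to 8446 CPM in the other control mice and at 7893 to 9030 CPM in tumor-bearing mice. In such bulk tissue fewer cells of a type and less RNA per cell cannot be told apart. Of the 16111 genes tested, 8.73% had an FDR (the Benjamini-Hochberg adjusted p of edgeR's quasi-likelihood test) under 0.05, with 4.12% higher and 4.61% lower in tumor-bearing mice.

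The promoters of 8 members were matched by symbol in RefSeq (build GRCm38.p6), as 16 windows for the alternative starts of these genes, and the 250 bases before each start were searched on both strands. The full palindromic receptor element, AGAACA and TGTTCT set 3 bases apart, occurred in 1 of the 16 windows, that of an internal start of Sgk1, at 189 bases before the start. Of all 32851 promoter windows of the same length, 3 hold it (0.00913%). A single arm of the element, AGAACA, occurred in 4 of the 16 windows and in 16.1% of all windows. Those 4 belong to Sgk1 and Tsc22d3 only, which have several windows each, and include the Sgk1 window with both arms. The clock protein motif CACGTG occurred in 3 of the 16 windows and in 6.02% of all windows. It lay 2 times in that of Klf15 and 1 time each in those of Fkbp5 and Sgk1. In the Sgk1 window it overlaps a separate TGTTCT and not the palindrome. The windows of Klf15 and Klf9 are shown because these genes passed the test, that of Fkbp5 for its spread among the control mice, and that of Sgk1 for the palindrome. They are written 5′ to 3′ on the strand of the gene, and capitals mark AGAACA or its complement, the palindrome and CACGTG. A match is a run of letters, and binding of the receptor was not measured.
Klf15, chr6:90462326-90462575, plus strand: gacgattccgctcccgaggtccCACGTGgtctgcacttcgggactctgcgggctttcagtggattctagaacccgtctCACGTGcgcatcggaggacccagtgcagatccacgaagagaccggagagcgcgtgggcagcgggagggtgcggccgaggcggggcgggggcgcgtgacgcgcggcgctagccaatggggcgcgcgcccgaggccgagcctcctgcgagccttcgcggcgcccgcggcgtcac
Klf9, chr19:23140976-23141225, plus strand: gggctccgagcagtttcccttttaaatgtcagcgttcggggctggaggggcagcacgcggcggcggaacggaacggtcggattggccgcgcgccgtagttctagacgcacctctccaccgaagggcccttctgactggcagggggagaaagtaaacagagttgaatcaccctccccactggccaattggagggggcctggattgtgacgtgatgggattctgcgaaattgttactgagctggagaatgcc
Fkbp5, chr17:28486150-28486399, minus strand: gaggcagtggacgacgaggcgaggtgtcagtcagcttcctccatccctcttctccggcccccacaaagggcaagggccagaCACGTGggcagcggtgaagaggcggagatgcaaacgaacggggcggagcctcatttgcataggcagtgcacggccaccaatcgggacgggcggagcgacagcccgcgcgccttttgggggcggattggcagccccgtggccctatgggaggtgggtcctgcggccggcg
Sgk1, chr10:21993640-21993889, plus strand: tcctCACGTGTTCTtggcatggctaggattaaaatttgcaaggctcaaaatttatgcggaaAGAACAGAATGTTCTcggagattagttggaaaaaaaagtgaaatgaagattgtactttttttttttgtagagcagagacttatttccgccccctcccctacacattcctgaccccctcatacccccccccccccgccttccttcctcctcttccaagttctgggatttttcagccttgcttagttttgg

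**Figure D1:**
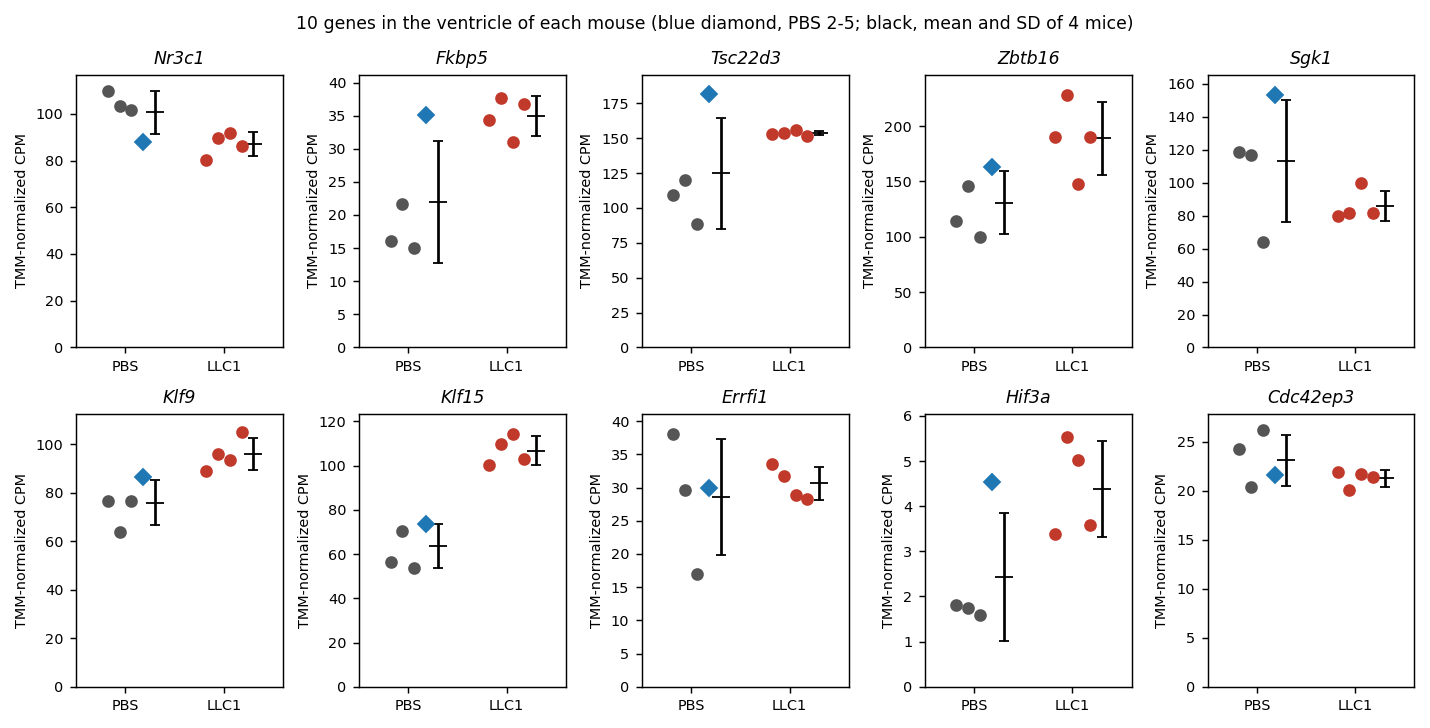
Each panel plots the TMM-normalized CPM of 1 gene (vertical axis, from 0) in the 4 PBS-injected and 4 tumor-bearing mice, with the mean and SD of each group in black and PBS 2-5 as a blue diamond. Klf15 and Klf9 show 2 separate groups, while PBS 2-5 sits among or above the tumor-bearing mice for Fkbp5, Tsc22d3, Zbtb16, Sgk1 and Hif3a and lowest of the control mice for Nr3c1.

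Nr3c1 (ENSMUSG00000024431, chromosome 18, 39410545 to 39491301 of mm10) encodes the glucocorticoid receptor. Its level was 80.2, 89.8, 91.9 and 86.1 CPM in LLC1 1-2, 1-3, 1-5 and 2-2 and 109.7, 103, 102 and 88.0 CPM in PBS 1-1, 1-3, 2-1 and 2-5. Of the control mice, only PBS 2-5 lay within the range of the tumor-bearing mice. The group means were 87.0 ± 5.10 CPM (SD, n = 4) in tumor-bearing mice against 100.6 ± 9.12 CPM (SD, n = 4) after PBS. LLC1 over PBS, the log2 fold change was -0.21 ± 0.076 (SE, edgeR FDR = 0.111), where FDR is the adjusted p of edgeR's quasi-likelihood test. Without PBS 2-5 it was -0.27 ± 0.065 (SE, edgeR FDR = 0.0258).

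Fkbp5 (ENSMUSG00000024222, chromosome 17, 28399095 to 28517524) encodes a co-chaperone that lowers the affinity of the receptor for its hormone, in a feedback on the signal. Its level was 34.4, 37.7, 31.0 and 36.8 CPM in LLC1 1-2, 1-3, 1-5 and 2-2. In PBS 1-1, 1-3 and 2-1 it was 16.1, 21.6 and 15.01 CPM, but in PBS 2-5 it was 35.1 CPM. That mouse had 1.99 times the mean of the other 3 control mice and lay within the range of the tumor-bearing mice. Taking every mouse, Fkbp5 differed 1.58-fold (log2 fold change 0.66 ± 0.21 SE, edgeR FDR = 0.0739), and without PBS 2-5 the log2 fold change was 0.99 ± 0.12 (SE, edgeR FDR = 0.00148). With all mice, 4 of 9 other ways of fitting the counts also gave an FDR under 0.05.

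Tsc22d3 (ENSMUSG00000031431, chromosome X, 140539528 to 140600659) encodes GILZ, a leucine zipper protein that carries part of the anti-inflammatory action of glucocorticoids. Its level was 153, 154, 156 and 152 CPM in LLC1 1-2, 1-3, 1-5 and 2-2 and 109, 119.9, 88.7 and 181 CPM in PBS 1-1, 1-3, 2-1 and 2-5. The tumor-bearing mice were close together, with a coefficient of variation (SD over mean) of 1.02%, against 31.95% in the control mice, and PBS 2-5 was above all of them. This gave a log2 fold change of 0.30 ± 0.16 (SE, edgeR FDR = 0.282), and 0.53 ± 0.089 without PBS 2-5 (SE, edgeR FDR = 0.00663). Without PBS 2-1 it was 0.16 ± 0.14 (SE, edgeR FDR = 0.547).

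Zbtb16 (ENSMUSG00000066687, chromosome 9, 48654311 to 48835945) encodes PLZF, a zinc finger transcription factor. Its level was 190.0, 228, 147 and 191 CPM in LLC1 1-2, 1-3, 1-5 and 2-2 and 114, 146, 100.2 and 163 CPM in PBS 1-1, 1-3, 2-1 and 2-5. The groups overlapped through LLC1 1-5 and PBS 2-5 alone. The difference came to a log2 fold change of 0.53 ± 0.15 (SE, edgeR FDR = 0.0533). The FDR was 0.0211 without PBS 2-5 and 0.0386 without LLC1 1-5 in the same edgeR test, and 0.00925 with DESeq2 and all mice. It lay between 0.0697 and 0.149 in the other 6 fits that left out a mouse, and 3 of 9 other ways of fitting all mice passed.

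Klf15 (ENSMUSG00000030087, chromosome 6, 90462576 to 90475238) encodes a Krüppel-like transcription factor that controls the use of fatty and amino acids in muscle and restrains cardiac hypertrophy. Its level was 100.2, 109.6, 115 and 103 CPM in LLC1 1-2, 1-3, 1-5 and 2-2 and 56.5, 70.5, 53.7 and 73.6 CPM in PBS 1-1, 1-3, 2-1 and 2-5. Every tumor-bearing mouse was above every control mouse (exact 2-sided permutation p = 0.0286, the smallest that the 70 arrangements allow). The means of 107 ± 6.47 and 63.6 ± 9.94 CPM (SD, n = 4 each) gave a log2 fold change of 0.75 ± 0.10 (SE, edgeR FDR = 0.00167). It alone of the 10 passed whichever of the 8 mice was left out, and its log2 fold change then lay between 0.67 and 0.82.

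Klf9 (ENSMUSG00000033863, chromosome 19, 23141226 to 23166911) encodes a related transcription factor that represses genes and is itself a direct receptor target. Its level was 89.0, 95.9, 93.6 and 105 CPM in LLC1 1-2, 1-3, 1-5 and 2-2 and 76.6, 63.8, 76.7 and 86.4 CPM in PBS 1-1, 1-3, 2-1 and 2-5. No mouse crossed between the ranges of the groups (exact 2-sided permutation p = 0.0286), although LLC1 1-2 and PBS 2-5 were close. The means differed by a log2 fold change of 0.34 ± 0.089 (SE, edgeR FDR = 0.0372). The FDR stayed under 0.05 without PBS 1-1 and without PBS 2-5. It rose to between 0.0547 and 0.109 when LLC1 1-2, LLC1 1-3, LLC1 1-5, LLC1 2-2, PBS 1-3 or PBS 2-1 was left out, in the same edgeR test. Groups with every tumor-bearing mouse above every control mouse, found for 2 of the 10 members, were found for 8.89% of all genes tested.

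Hif3a (ENSMUSG00000004328, chromosome 7, 17031507 to 17062427) encodes a subunit of the hypoxia-inducible factors that can restrain the other members of its family. It was the least abundant of the 10 genes, at 3.37, 5.53, 5.03 and 3.57 CPM in LLC1 1-2, 1-3, 1-5 and 2-2. In PBS 1-1, 1-3 and 2-1 it was 1.80, 1.75 and 1.59 CPM, against 4.55 CPM in PBS 2-5. That mouse again lay inside the tumor-bearing range, at 2.65 times the mean of the other control mice. Its log2 fold change was 0.82 ± 0.31 (SE, edgeR FDR = 0.126) with all mice and 1.35 ± 0.23 (SE, edgeR FDR = 0.00682) without PBS 2-5.

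Sgk1 (ENSMUSG00000019970, chromosome 10, 21882184 to 21999903) encodes a kinase that controls ion channels and transporters and answers to both glucocorticoids and mineralocorticoids. Its level was 79.7, 81.8, 99.6 and 81.9 CPM in LLC1 1-2, 1-3, 1-5 and 2-2 and 119, 117, 64.1 and 153 CPM in PBS 1-1, 1-3, 2-1 and 2-5. As for Nr3c1, 3 of the 4 control mice were above every tumor-bearing mouse, while PBS 2-1 was below them all. The resulting log2 fold change was -0.40 ± 0.20 (SE, edgeR FDR = 0.225). It was -0.60 without PBS 2-1 (edgeR FDR = 0.0132) and -0.22 without PBS 2-5 (edgeR FDR = 0.449). The palindromic receptor element printed above lies before an internal start of this gene, and the counts do not separate the starts.

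Errfi1 (ENSMUSG00000028967, chromosome 4, 150853919 to 150868892) encodes MIG6, an inhibitor of EGF receptor kinases. Its level ran from 28.3 to 33.5 CPM in tumor-bearing mice and from 16.9 (PBS 2-1) to 38.1 CPM (PBS 1-1) in control mice, so that the control mice spread to both sides. The log2 fold change was 0.11 ± 0.18 (SE, edgeR FDR = 0.759), and its sign turned without PBS 2-1 (-0.088 ± 0.10). Cdc42ep3 (ENSMUSG00000036533, chromosome 17, 79334025 to 79355091) encodes an effector of the small GTPase CDC42 that acts on the actin cytoskeleton. Its level ran from 20.02 to 21.9 CPM in tumor-bearing and from 20.4 to 26.2 CPM in control mice, with a log2 fold change of -0.12 ± 0.089 (SE, edgeR FDR = 0.434). Of its exon bases, 8.14% overlap Gm17315 on the other strand, while the exons of the other 9 genes overlap no other gene in GENCODE M21.

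Divided by gene length, the levels of the members in PBS-injected mice followed a clear order only in part. Tsc22d3, Zbtb16, Klf15, Klf9 and Sgk1 had between 28.8 ± 9.19 and 23.1 ± 7.51 CPM per kilobase (SD, n = 4), and neighbours in that order differed by less than their spread. Nr3c1 followed at 13.6 ± 1.23 and Cdc42ep3 at 11.7 ± 1.32 CPM per kilobase (SD, n = 4). Errfi1, Fkbp5 and Hif3a were at 7.995 ± 2.44, 3.45 ± 1.45 and 0.361 ± 0.211 CPM per kilobase (SD, n = 4). In tumor-bearing mice Klf15, at 42.3 ± 2.56 CPM per kilobase (SD, n = 4), came first, ahead of Zbtb16 (37.1 ± 6.497) and Tsc22d3 (35.4 ± 0.362), and Sgk1, at 17.5 ± 1.89, came behind Klf9 (29.4 ± 2.07). The 42.3 and 37.1 of Klf15 and Zbtb16 differed by less than the spread of Zbtb16.

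Taking the 10 genes as a list, 7 had positive and 3 negative log2 fold changes, with a median of 0.32, against -0.010 over all genes tested. The list was picked with earlier results of these data known, so that its counts are a description. Of the members, 2 were higher at an FDR under 0.05 where 4.12% of all genes were, and 0 were lower where 4.61% were. The unadjusted p of Fkbp5, Zbtb16, Hif3a and, as 1 lower gene, Nr3c1 was also under 0.05 in edgeR's test, a limit met by 12.4% of all genes as higher and 13.0% as lower, and DESeq2 gave 3 higher and 0 lower members. With PBS 2-5 left out, 6 members were higher (Klf15, Klf9, Fkbp5, Tsc22d3, Zbtb16 and Hif3a) and 1, Nr3c1, was lower. In that fit 10.1% of all genes passed, 4.99% higher and 5.1% lower, and the median log2 fold change of the members was 0.47. The other 7 fits that each left out 1 mouse gave 1 or 2 members, with between 3.32% (without PBS 1-3) and 11.9% (without PBS 1-1) of all genes passing.

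**Figure D2:**
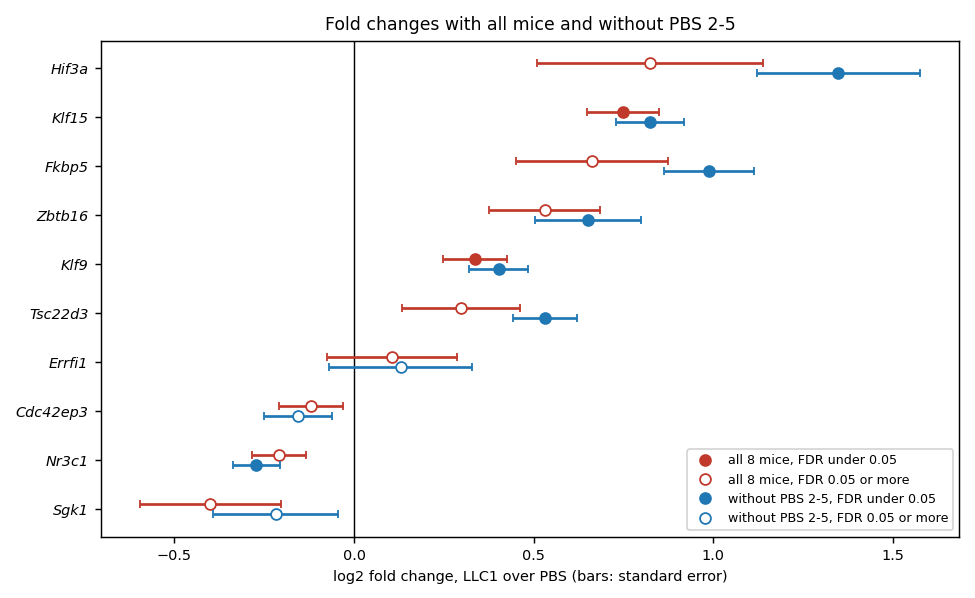
The log2 fold change of LLC1 over PBS is plotted on the horizontal axis for each of the 10 genes, with all 8 mice in red and without PBS 2-5 in blue, bars giving the standard error and filled points an FDR under 0.05. Fkbp5, Hif3a and Tsc22d3 move furthest, to 0.99, 1.35 and 0.53, while Klf15 goes from 0.75 to 0.82.

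**Figure D3:**
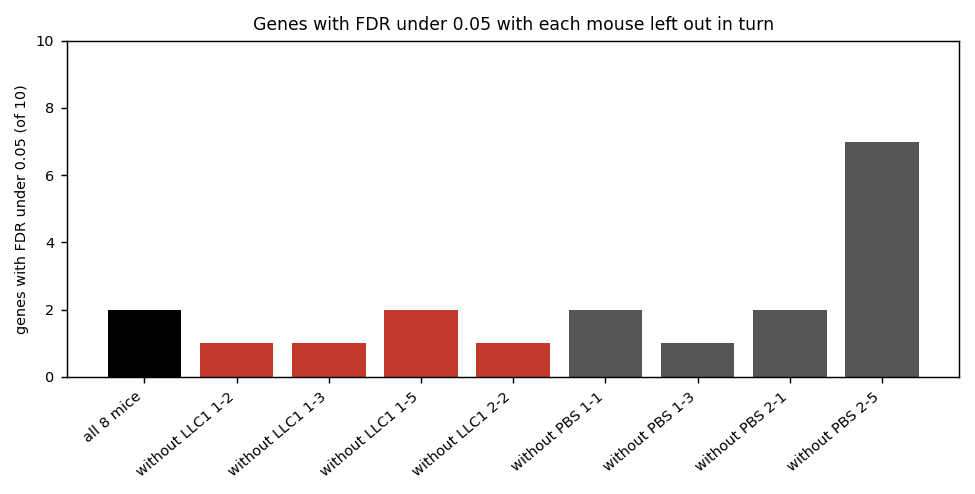
Bars give the number of the 10 genes with an FDR under 0.05 (vertical axis) with all 8 mice (black) and with each tumor-bearing mouse (red) or control mouse (grey) left out. The number is 7 without PBS 2-5 and 1 or 2 in every other fit.

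PBS 2-5, singled out after its values were seen, had the highest level of the control mice for 7 of the 10 genes, where it was the highest for 30.0% of all genes tested. It had the lowest level for Nr3c1, and was the lowest for 25.4% of all genes. PBS 2-1 was the lowest control mouse for 7 members, against 22.0% of all genes. All 10 members had a larger coefficient of variation in PBS-injected than in tumor-bearing mice. So had 69.7% of the 12348 genes that were at least as abundant as Hif3a. In PBS-injected mice the coefficient ran from 9.07% for Nr3c1 to 58.6% for Hif3a, where the median of those genes was 10.1%. It was 11.3% for Cdc42ep3, 12.2% for Klf9 and 41.9% for Fkbp5. PBS 2-5 also had the highest summed levels of the control mice for the macrophage (237 CPM, 7 of 8 markers in the table), endothelial (1250.5 CPM, 7 of 7) and fibroblast markers (1043 CPM, 7 of 7). The sums ran from 164 to 237, from 959 to 1250.5 and from 828 to 1043 CPM over the control mice and from 155 to 195, from 844 to 969 and from 757 to 835 CPM over the tumor-bearing mice, and no listed marker of these types was without counts. Their part in the levels of the members was not tested.

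Because several members follow the daily clock, 19 clock genes were examined in the same fit. With all mice 0 of them had an edgeR FDR under 0.05. Without PBS 2-5, 2 were higher, Per1 and Per2, where 4.99% of all genes were. Per1, a clock gene that the receptor induces directly, had 105, 129, 103 and 137 CPM in LLC1 1-2, 1-3, 1-5 and 2-2 and 56.8, 86.9, 61.4 and 167 CPM in PBS 1-1, 1-3, 2-1 and 2-5. Its log2 fold change was 0.35 ± 0.27 (SE, edgeR FDR = 0.461) with all mice and 0.79 ± 0.15 (SE, edgeR FDR = 0.0105) without PBS 2-5. Per2 and Arntl, which peak at opposite phases of the cycle, were picked after their values were seen. PBS 2-5 had the highest Per2 of the control mice (36.6 CPM, against 11.3 to 17.0 in the others) and the lowest Arntl (8.09 CPM, against 15.3 to 32.3). In the 4 tumor-bearing mice Per2 ran from 20.1 to 32.6 CPM and Arntl from 10.2 to 18.9 CPM. Of the 19 clock genes, PBS 2-5 was the highest control mouse for 10 and the lowest for 6, against 30.0% and 25.4% of all genes. The part of the clock genes in the levels of the members was not tested.

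Of 42 other genes known to be induced by glucocorticoids, 41 were tested. In tumor-bearing mice 15 were higher and 0 lower by edgeR's FDR, against 4.12% and 4.61% of all genes. Results for 5 of the 41 were known before the list was made, and 4 of these were among the 15. Of the other 36, 11 were higher. DESeq2 gave 17 higher and 0 lower, and the likelihood ratio test gave 17 higher and 1 lower, Snai2. At an unadjusted p under 0.05 edgeR's test had 22 higher and 2 lower, Snai2 and Dusp1, both named after their values were seen, where 12.4% of all genes were higher and 13.0% lower at that limit. The median log2 fold change of the list was 0.35. Without PBS 2-5, 18 were higher, 13 of them among the 15, where 4.99% of all genes were higher. Without PBS 1-3 there were 8, and the share of all genes that passed fell to 3.32%. The 15 higher genes of this list serve several functions and most have other known inducers besides glucocorticoids. Pnpla2, the lipase that begins the breakdown of stored triglyceride, rose from 361 ± 38.0 to 596 ± 29.0 CPM (SD, n = 4 each) and had a log2 fold change of 0.72 ± 0.079 (SE, edgeR FDR = 0.000635). Glul, which makes glutamine, rose from 458 ± 86.5 to 683 ± 28.4 CPM (SD, n = 4 each), with a difference on the log2 scale of 0.58 (edgeR FDR = 0.0116).

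Sesn1, a stress-induced inhibitor of growth signalling, and Foxo3, a transcription factor of the atrophy program, had log2 fold changes of 0.54 and 0.49 (FDR = 0.000832 and 0.00611 from edgeR's quasi-likelihood test). Tgm2, a transglutaminase, and Gadd45b, a stress-response gene, had 0.34 and 1.03 (FDR = 0.0112 and 0.00432). All 6 of these genes, Pnpla2 and Glul included, passed in each of the 8 fits that left out a mouse. PBS 2-5 was the highest control mouse for 20 of the 41 genes and the lowest for 8, against 30.0% and 25.4% of all genes. Picked after their values were seen, Arrdc2, an arrestin-like protein, and Mt1, a metallothionein, moved more without PBS 2-5. Arrdc2 had a log2 fold change of 0.64 (edgeR FDR = 0.306) with all mice and 1.41 (edgeR FDR = 0.000651) without PBS 2-5 and PBS 2-5 had 3.77 times the mean of the other control mice. Mt1 went from 0.54 (edgeR FDR = 0.147) to 0.85 (edgeR FDR = 0.00455), with PBS 2-5 at 1.99 times the others. Ptgds, a prostaglandin synthase picked in the same way, went from 0.90 (edgeR FDR = 0.0122) to 0.74 (edgeR FDR = 0.0106), PBS 2-5 being its lowest control mouse.

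**Figure D4:**
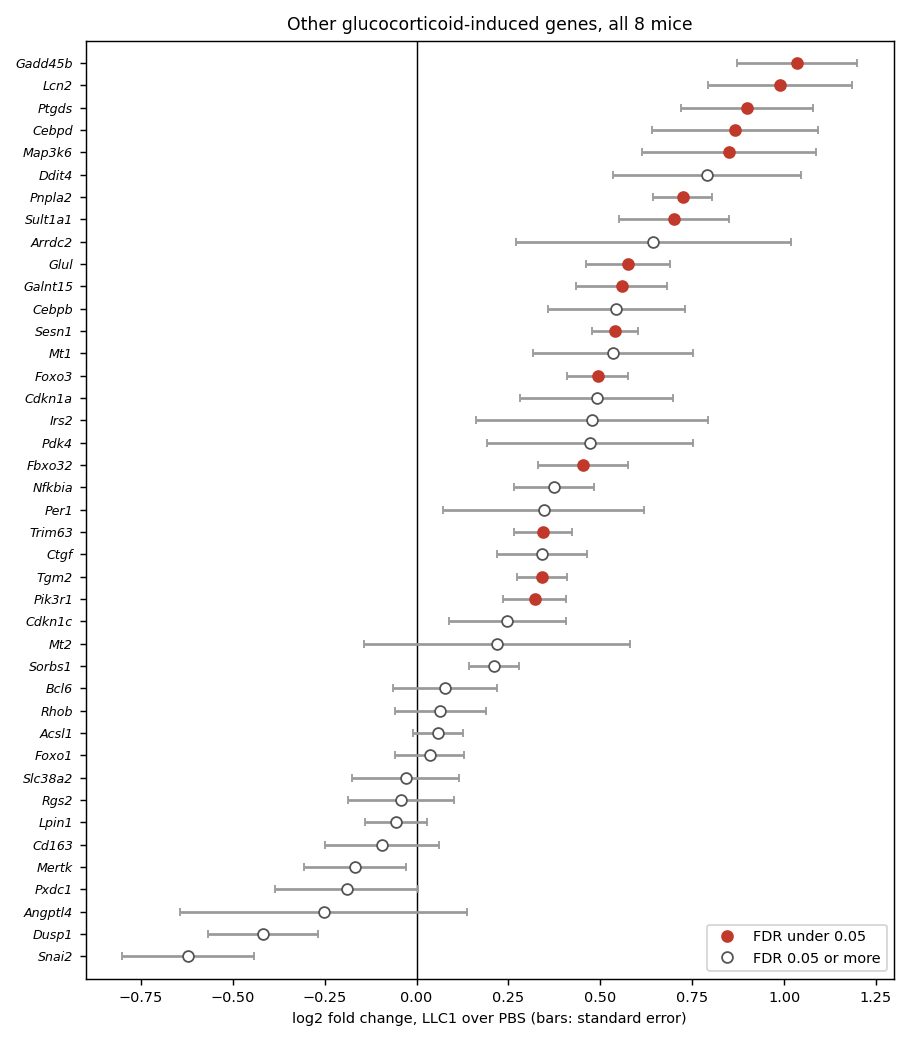
The log2 fold change of LLC1 over PBS (horizontal axis, all 8 mice) is shown for the 41 other glucocorticoid-induced genes tested, with its standard error, filled red points having an FDR under 0.05. All 15 filled points lie to the right of 0, from 0.32 for Pik3r1 to 1.03 for Gadd45b.

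Other components of the receptor pathway were examined next. Of 5 tested genes for steroid receptors and local steroid metabolism, 0 passed in edgeR's test. Hsd11b1 as 1 higher and Srd5a1 as 1 lower gene, the latter named after its values were seen, had an unadjusted p under 0.05, as 12.4% of all genes did on the higher and 13.0% on the lower side. DESeq2 gave 0, and the likelihood ratio test gave 1, Hsd11b1. Hsd11b1, which regenerates active glucocorticoid inside cells, had 17.7, 15.3, 12.9 and 12.1 CPM in LLC1 1-2, 1-3, 1-5 and 2-2 and from 10.6 to 11.9 CPM in the control mice. Its groups did not overlap, and its log2 fold change was 0.38 ± 0.12 (SE, edgeR FDR = 0.0762). Nr3c2, the mineralocorticoid receptor, which also binds corticosterone, had 23.0 ± 1.53 against 23.7 ± 1.22 CPM (SD, n = 4; log2 fold change -0.042 ± 0.078 SE, edgeR FDR = 0.777).

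Among 14 receptor chaperones and co-chaperones 1 passed, near the 8.73% of all genes. Ppp5c, a phosphatase that binds the receptor complex, was higher (81.8 ± 2.49 against 63.9 ± 5.66 CPM, SD, n = 4; log2 fold change 0.36, edgeR FDR = 0.0117, and 0.0523 without PBS 1-3). The core chaperones Hsp90aa1 and Hsp90ab1 and the co-chaperone Fkbp4, which competes with the product of Fkbp5, had log2 fold changes of -0.49, 0.056 and -0.060 with edgeR FDRs of 0.250, 0.670 and 0.654. Hsp90aa1 was at 246 CPM in PBS 1-1 and between 87.7 and 152 CPM in the other control mice. PBS 2-5 had the lowest level of the control mice for 8 of the 14 genes, where it was the lowest for 25.4% of all genes. Of 15 receptor coregulators, 0 passed in edgeR's test or in DESeq2, while 3 were higher and 1 lower at edgeR's unadjusted p under 0.05, a limit met by 12.4% of all genes as higher and 13.0% as lower.

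Relatives and partners of the members were examined in the same way. In the KLF family, 1 of the 10 other genes tested passed, near the 8.73% of all genes. This was Klf7, which was lower (log2 fold change -0.31, edgeR FDR = 0.0492). Without PBS 2-5, 1 gene passed as well, Klf13 (named after its values were seen), which was higher, where 10.1% of all genes passed. Among 23 tested relatives of Fkbp5, Tsc22d3, Sgk1, Hif3a and Cdc42ep3, 1 passed, where 8.73% of all genes did. This was Cdc42ep2, which was lower (log2 fold change -0.33, edgeR FDR = 0.0332). Without PBS 2-5 there were 4 others, named after their values were seen, with Fkbp8, Cdc42ep4 and Tsc22d1 higher and Sgk3 lower, where 4.99% and 5.1% of all genes were. Of 20 tested partners and targets, 4 were higher and 2 lower, against 4.12% and 4.61% of all genes. These 6 became 1 without PBS 1-3 and 2 without LLC1 1-2, LLC1 1-3 or LLC1 1-5, where 3.32%, 4.59%, 3.88% and 4.36% of all genes passed. Kcnip2 and Prodh, a potassium channel subunit and an enzyme of proline breakdown that KLF15 is known to induce, were both higher, by log2 fold changes of 0.25 (edgeR FDR = 0.0340) and 0.42 (edgeR FDR = 0.0200). Nedd4l, a ubiquitin ligase that SGK1 phosphorylates, was higher by 0.22 (edgeR FDR = 0.0423), and Foxo3, a further substrate of that kinase, is given above. Cdc42 itself was lower (log2 fold change -0.24, edgeR FDR = 0.0302), as was the potassium channel subunit Kcne1 (-0.69, edgeR FDR = 0.0166). With each of the 8 mice left out in turn, Kcne1 passed in 6 fits (not without LLC1 1-3 or PBS 1-3) and Prodh in 4 (not without LLC1 1-2, LLC1 1-5, PBS 1-3 or PBS 2-1). Cdc42ep2 and Kcnip2 passed in 2 fits (without PBS 1-1 or PBS 2-1), Cdc42 and Nedd4l in 2 (without PBS 1-1 or PBS 2-5), and Klf7 in 1 (without PBS 2-1).

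Markers of other cell types were examined as well, and their part in the levels of the members was not tested. Of the smooth muscle and pericyte (7 tested), lymphocyte (2), erythroid (5) and adipocyte markers (1), 0 had an edgeR FDR under 0.05. At an unadjusted p under 0.05 in edgeR's test, 3 of the smooth muscle and pericyte markers were lower and the adipocyte marker was higher. At that limit 13.0% of all genes were lower and 12.4% higher. DESeq2 called 1 of the smooth muscle and pericyte markers (Acta2, named after its values were seen). The smooth muscle and pericyte markers summed to between 821 and 880 CPM in tumor-bearing and between 937 and 1106 CPM in control mice. Of 7 fibroblast markers Lum, Postn, Col1a2 and Col1a1 were lower, of 7 endothelial markers Kdr and Emcn, and of 7 macrophage markers Mrc1 and Cx3cr1, where 4.61% of all genes were lower. At an unadjusted p under 0.05 in edgeR's test 4, 5 and 4 markers of these lists were lower and 0 higher. DESeq2 gave 4, 4 and 2 lower, and limma-voom 3, 2 and 1. Of these lists, the fibroblast list had 1 positive and 6 negative log2 fold changes and the others 7 negative each. Neutrophil markers (3 of 6 tested) were low, summing to between 3.32 and 6.58 CPM in tumor-bearing and between 1.24 and 3.09 CPM in control mice, with S100a8 and S100a9 higher where 4.12% of all genes were. S100a8 passed in 1 of the 8 fits that left out a mouse (without PBS 1-1). The lymphocyte markers summed to at most 4.30 CPM in any mouse, and adipocyte markers to at most 34.1 CPM, with Ucp1 at 0 counts. Of these marker genes Lum, Postn, Kdr and S100a9 passed whichever mouse was left out. Emcn passed in 5 of these 8 fits, Col1a2 and Mrc1 in 4, Cx3cr1 in 3 and Col1a1 in 1. Erythroid markers, highest in LLC1 1-2 at 5180 CPM, ran from 1428 CPM upward in tumor-bearing mice and from 1556 to 3097 CPM in control mice. Of 9 cardiomyocyte markers 1 passed edgeR's FDR limit, where 8.73% of all genes did. This was Myh6, which was higher (log2 fold change 0.24, edgeR FDR = 0.0209). It passed in 4 of the 8 fits that left out a mouse (not without LLC1 1-3, LLC1 1-5, PBS 1-3 or PBS 2-1). At an unadjusted p under 0.05 in edgeR's test 4 of the 9 were higher and 0 lower, where 12.4% and 13.0% of all genes were. DESeq2 and limma-voom each called 2, and the likelihood ratio test and scaling to total counts 0. The list had 6 positive and 3 negative log2 fold changes.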

How the data were processed

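RNA of the cardiac ventricles of 4 LLC1-injected and 4 PBS-injected mice was sequenced from TruSeq libraries, and the authors deposited raw counts of reads per gene, 1 column per mouse, aligned to mm10. Per the labels, the submitters' processing notes name CASAVA, STAR and featureCounts. Annotation and strand setting are not given in the sources used here. Groups were taken from the stated treatment, and mice are named by the code in their titles. Nothing states that the first number of the code marks a cage or batch.

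The counts were compared with edgeR 4.0.16 (filterByExpr, TMM factors, glmQLFit and glmQLFTest, group as the term, Benjamini-Hochberg adjustment over 16111 genes) in R 4.3.3. The standard error is the absolute log2 fold change divided by the square root of F. Means and SDs are of CPM, with library sizes multiplied by the TMM factors. Exact permutation tests of log2 CPM used scipy 1.17.1. Other ways of fitting were DESeq2 1.42.0, limma-voom 3.58.1, the likelihood ratio test, robust empirical Bayes, upper-quartile and total-count scaling, no filter, at least 10 counts in every mouse, the first number of the code as a covariate, and each mouse left out in turn. The steps were tested on simulated data.

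The members and gene lists were chosen with earlier results of these data known, among them results for 5 genes of the list of other induced genes, so no count over a list is independent evidence. Named genes are the members, the genes of each other list with an FDR under 0.05 (at most the 6 with the lowest FDR), and Nr3c2, Hsd11b1, Per1, Hsp90aa1, Hsp90ab1 and Fkbp4. Other genes were named after their values were seen. Sequences are from RefSeq. With 4 mice per group, edgeR's p-values set each difference against the spread between these mice, estimated with information shared over all genes tested. Counts of clock genes at an unadjusted p or by other tools are not reported here.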

Additional observations from a re-analysis of the deposited data

Results flagged for a closer look

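The 55 genes examined here were the 10 members and the other genes named in the text apart from Acta2, Gm17315, Ttn and Ucp1. In each, both groups of 4 mice were examined for a mouse whose gap to the nearest other exceeded Dixon's limit. That limit, for 4 values and as a share of the range, is passed by chance in about 1 of 20 groups. This was met in 11 of 110 groups. Among the members, PBS 2-5 had 4.55 CPM of Hif3a with the next control mouse at 1.80, and LLC1 1-5 had 99.6 CPM of Sgk1 with the next tumor-bearing mouse at 81.9. PBS 2-5 was also apart for Prodh (52.7 CPM), Arrdc2 (43.5 CPM) and Klf13 (64.0 CPM), of which the last 2 were named after their values were seen. LLC1 2-2 was apart for Pnpla2 (639 CPM), LLC1 1-2 for Glul (641 CPM, the lowest of its group), LLC1 1-5 for Myh6 (56460 CPM), LLC1 1-3 for Postn (19.2 CPM, the lowest), LLC1 1-5 for Per2 (20.1 CPM, the lowest) and PBS 1-1 for S100a9 (0.601 CPM). For Fkbp5 and Tsc22d3 in PBS 2-5 the gap did not reach this limit.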

How the results depend on the processing

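Klf15 was higher with an FDR under 0.05 in all 9 other fits with all mice and in all 8 that left out a mouse. The number of members called was 2, against 4 in the likelihood ratio test, 4 without a filter, 1 with scaling to total counts only, and 1 to 7 when each mouse was left out. Klf9 fell short with scaling to total counts (log2 fold change 0.28, FDR = 0.110) and ranged from 0.26 to 0.40 when each mouse was left out. Fkbp5 passed in the likelihood ratio test (0.67), limma-voom (0.73), without a filter (0.68) and with the first number of the code as covariate (0.74), and ranged from 0.50 to 0.99 without 1 mouse. Zbtb16 passed with DESeq2 (0.53), the likelihood ratio test (0.53) and no filter (0.54), and ranged from 0.42 to 0.65. Without 1 mouse, Tsc22d3 ranged from 0.16 to 0.53, Hif3a from 0.64 to 1.35, Nr3c1 from -0.27 to -0.16, Sgk1 from -0.60 to -0.22, Cdc42ep3 from -0.18 to -0.055 and Errfi1 from -0.088 (without PBS 2-1, its sign reversed) to 0.27. The cause of these changes was not tested. Over all genes 542 to 1949 were called without 1 mouse, against 1406. The other gene lists together held 14 to 47 such genes, and the other induced genes 8 to 18. Of the fits with all mice, scaling to total counts moved the median over all genes, to -0.065 from -0.010. No paired analysis was possible because the groups share a single replicate code, carried by different animals. With 4 mice a group, and Hif3a at 21 to 92 counts, smaller differences could not be told from the spread.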
